A study of Mus musculus with 6 samples.

Results

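Notch signalling passes between touching cells. A ligand of the Jagged or Delta family on one cell binds a Notch receptor on its neighbour, the receptor is cut by proteases, and its freed intracellular domain joins the DNA-binding protein RBPJ in the nucleus, where it switches on genes of the Hes and Hey families, which encode transcriptional repressors. In the secondary palate, whose shelves grow out, rise and fuse in the midline, Jag2 is known as a gene that closure requires: mice without it have cleft palate. The 10 genes described here are 3 receptors (Notch1, Notch2 and Notch3), 3 ligands (Jag1, Jag2 and Dll1) and 4 targets (Hes1, Hey1, Hey2 and Heyl). They were matched by symbol, and all 10 were found among the 56691 genes counted.

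Bulk RNA-seq was performed on palatal shelves microdissected from C57BL/6J mouse embryos at E14.0, with 3 libraries of the anterior 1/3 and 3 libraries of the posterior 1/3. The labels give no genotype or treatment, and region is the one label in which the groups differ. The study describes its 6 samples as biologically independent, and whether shelves of several embryos were pooled for a library is not given in the sources used here. Reads counted in genes ranged from 11378736 to 15172733 per library. Values are given as CPM, the count scaled to the effective total of its library, as CPM per kilobase of exonic length (CPM per kb) where genes are compared with each other, and as the log2 fold change of posterior over anterior with its standard error. A gene is called where edgeR's quasi-likelihood test, adjusted over all 15673 genes tested, gave an adjusted p below 0.05. All 10 Notch genes passed the filter on low counts, with at least 46 reads in every library.

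The region labels were checked with the patterning genes Shox2, at 386 CPM in anterior and 11.7 CPM in posterior libraries, and Meox2, at 7.83 and 192 CPM. Markers of palatal mesenchyme (Prrx1, Pdgfra and others) summed to between 1648 and 2025 CPM in every library. Of these 7 markers 3 were called, Prrx1 as higher in anterior (1058 and 417 CPM) and Pdgfra (294 and 614 CPM) and Twist1 (174 and 291 CPM) as higher in posterior. Of the lists for other cell types, skeletal muscle stood apart, with all 10 markers higher in posterior and a summed level of 10.6 to 13.2 CPM in anterior against 582 to 1020 CPM in posterior libraries. Neuronal and glial, myeloid, erythroid and osteoblast markers gave no call. The neuronal and glial sum was 252 CPM in posterior library 2 and 32.5 to 62.3 CPM in the other 5 libraries. The 5 osteoblast markers summed to 1968 to 3552 CPM in anterior and 295 to 1821 CPM in posterior libraries. In bulk tissue, fewer cells of a type and less RNA per cell cannot be told apart. Posterior libraries 2 and 3 also stood apart from the other 4. The share of multimapping reads was 6.12% and 5.94% in them, against 8.45% to 8.77% elsewhere. Their unmapped reads were 4.14% and 4.65%, against 2.71% to 3.04%, and their mitochondrial reads 0.973% and 1.14%, against 2.701% to 2.97%. Long genes had higher values in them. Among genes with at least 8 kb of exons, the median log2 ratio to the anterior mean was 0.38 and 0.40 in those libraries, and among genes under 1.5 kb it was -0.25 and -0.31. Posterior library 1 gave -0.03 and 0.07. The fold changes of the 10 Notch genes, and of the pathway genes called, are therefore also given with a term for these 2 sets of libraries, which in effect sets posterior library 1 alone against the 3 anterior libraries. Its p-values take their spread from the other libraries and assume that this single library varies as they do.

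Of the 10 Notch genes, 2 targets were called, Hey1 and Heyl, both higher in anterior, and no gene was called higher in posterior. Among all genes tested, 7.46% were called, 2.59% as higher in anterior and 4.87% as higher in posterior. Hey1 and Heyl were also the only members whose anterior and posterior libraries did not overlap. Over all genes tested, 13.4% had no overlap with anterior higher and 14.7% with posterior higher. The median log2 fold change of the 10 genes was 0.05, against -0.00 over all genes tested.

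**Figure D1:**
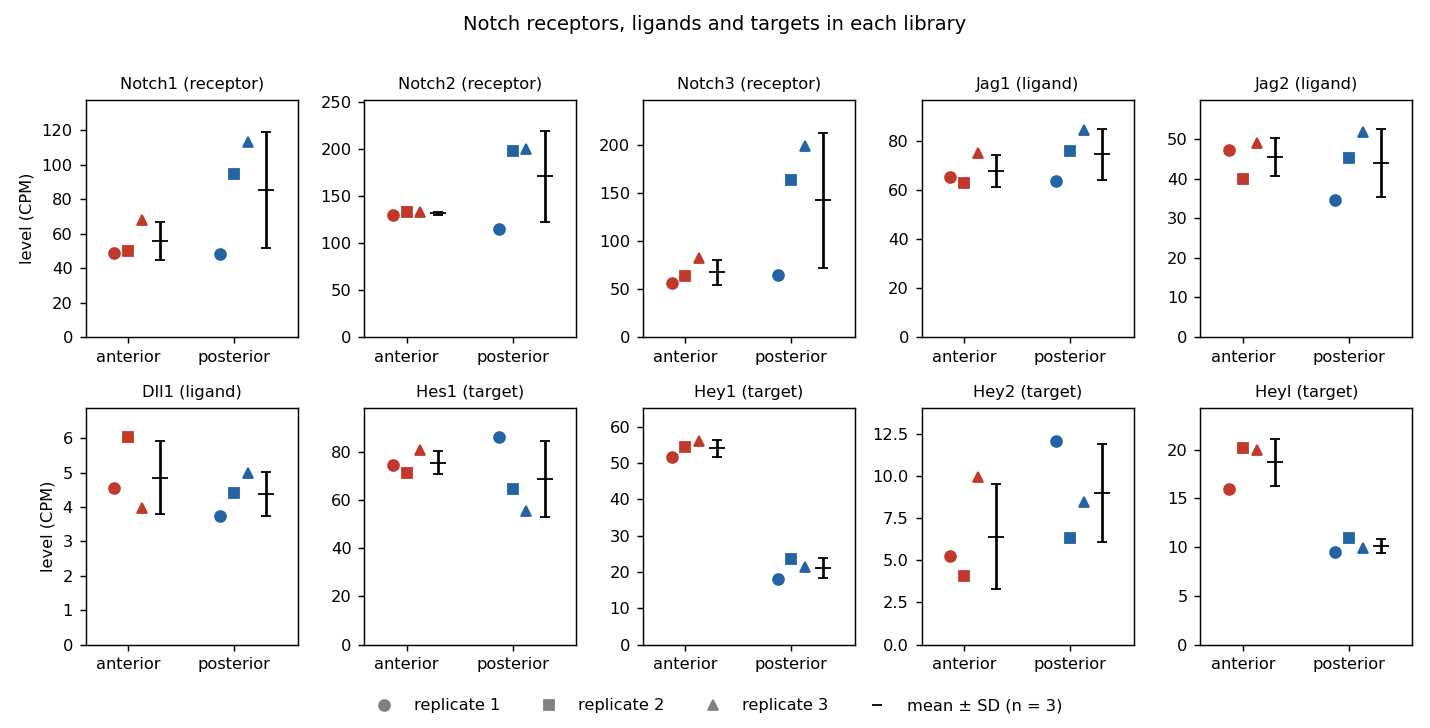
Level in CPM (vertical axes, from 0) of the 10 Notch genes in each library, with anterior libraries in red, posterior libraries in blue, one symbol per replicate number, and the mean ± SD of the 3 libraries in black. Hey1 and Heyl lie lower in all 3 posterior libraries, whereas the 3 receptors are high in posterior libraries 2 and 3 and near the anterior level in posterior library 1.

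Hey1 encodes a basic helix-loop-helix repressor that is a direct target of Notch signalling in many tissues. It was counted at 51.7, 54.4 and 56.2 CPM in the anterior libraries and at 18.1, 23.7 and 21.3 CPM in the posterior libraries. All 3 posterior libraries lay well below the lowest anterior one, and the replicates of each region lay close together. The mean was 54.1 ± 2.26 CPM in anterior and 21.02 ± 2.80 CPM in posterior (SD, n = 3 each), which is 2.57-fold higher in anterior, with a log2 fold change of -1.36 ± 0.12 and an adjusted p of 0.000897 in edgeR. With the term for the 2 sets of libraries the log2 fold change was -1.58 and the edgeR adjusted p was 0.000248. Hey1 was called under every alternative and with each library left out, with log2 fold changes from -1.58 to -1.26.

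Heyl encodes the most divergent of the Hey repressors and is known from vascular smooth muscle and muscle precursors. Its levels were 15.9, 20.2 and 19.99 CPM in anterior and 9.51, 10.9 and 9.87 CPM in posterior libraries, so that all posterior values lay below all anterior values here too. The means of 18.7 ± 2.41 and 10.1 ± 0.727 CPM (SD, n = 3 each) made Heyl 1.85-fold higher in anterior, with a log2 fold change of -0.89 ± 0.15 and an edgeR adjusted p of 0.0110. With the term for the sets of libraries the values were -0.98 and an edgeR adjusted p of 0.0224. The direction held under every alternative, but the call was lost in edgeR without anterior library 2 (adjusted p = 0.0686) or anterior library 3 (adjusted p = 0.0533).

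Hes1 and Hey2, the other 2 targets, did not pass the test. Hes1, a repressor that also oscillates in undifferentiated cells, had 74.7, 71.0 and 80.7 CPM in anterior and 86.1, 64.5 and 55.3 CPM in posterior libraries. Posterior library 1 was the highest of the 6 and posterior libraries 2 and 3 were the lowest. The log2 fold change was -0.14 ± 0.16 (edgeR adjusted p = 0.609), with a 95% interval of -0.52 to 0.24, and it changed sign to 0.19 with the term for the sets of libraries. Hes1 has the shortest exonic sequence of the 10 genes, 2.037 kb, and genes of 1.5 to 3 kb had median log2 ratios of -0.20 and -0.23 in posterior libraries 2 and 3, where Hes1 itself was at -0.23 and -0.45.

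Hey2, the third Hey repressor, best known from the heart and arteries, was counted at 5.24, 4.07 and 9.95 CPM in anterior and 12.1, 6.36 and 8.50 CPM in posterior libraries. The regions overlapped, anterior library 3 lying above 2 of the posterior libraries. With 56 to 162 reads per library the log2 fold change was 0.49 ± 0.37 (edgeR adjusted p = 0.421), and its 95% interval, -0.37 to 1.36, lay above that of Hey1, -1.65 to -1.08. With the term for the sets of libraries the value was 0.93, with an interval of -0.03 to 1.89 (edgeR adjusted p = 0.265). Leaving out anterior library 3 raised it to 0.95, and leaving out anterior library 2 or posterior library 1 lowered it to 0.25 and 0.23, without a call.

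RBPJ recognises the letters GTGGGAA, and promoters from 250 bases before to 50 after the start of each gene (RefSeq, GRCm38.p6) were searched for them on both strands. A match is a description of letters and not evidence of binding. The table held 8 promoters of 7 Notch genes, namely Notch1, Notch2, Notch3, Jag1, Jag2, Dll1 and Hey2. Among all 32851 promoters 6.38% held a match and 33 promoters held one on each strand, whereas of the 8 promoters only that of the target Hey2 held any, one on each strand. The 2 stretches of that promoter are printed because they are the only matches in the 8 promoters searched, with the motif in capitals and both read along the strand of Hey2.
Hey2, chr10:30842973-30843002, minus strand, match on the other strand beginning 207 bases before the start: tgcgcggtggcaTTCCCACgcctctgccaa
Hey2, chr10:30842770-30842799, minus strand, match on the strand of the gene beginning 4 bases before the start: ctgggctgcagcGTGGGAAagaacctccag
The starts used are those of RefSeq. In the GENCODE M21 annotation Hey2 begins at 30842801, so that by it the stretch from 30842770 to 30842799 lies inside the gene. The level of Hey2 that goes with this promoter was among the lowest of the 10 genes in both regions, at 1.40 CPM per kb in anterior and 1.96 CPM per kb in posterior libraries.

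The make-up of the target group was compared within each library, on the scale of counts per kb, where the total of a library plays no part. Hes1 made up 64.6%, 61.9% and 63.0% of the 4 targets in the anterior libraries and 80.8%, 74.6% and 72.5% in the posterior libraries. Hey1 made up 27.9%, 29.5% and 27.3% in anterior and 10.6%, 17.1% and 17.4% in posterior libraries. For both, the regions did not overlap. The share of Heyl had means of 6.24% in anterior and 4.58% in posterior libraries, again with no overlap, whereas that of Hey2, 2.34% and 4.42%, overlapped. For Hes1, Hey1 and Heyl the two-sided exact permutation test gave p = 0.1 each, which is the smallest p that 3 against 3 libraries can give, and 0.25 after adjustment over the 10 shares. The shares of a role add up to a whole, so that a lower share of Hey1 by itself raises that of Hes1. These 3 are therefore not separate results, and the level of Hes1 itself had a log2 fold change of -0.14. Summed over the 4 targets the level was 58.7 ± 3.66 CPM per kb in anterior and 44.1 ± 7.57 CPM per kb in posterior libraries (SD, n = 3 each). It was 52.3, 42.4 and 37.4 CPM per kb in posterior libraries 1, 2 and 3, and the length trend of libraries 2 and 3 also touches this sum.

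**Figure D2:**
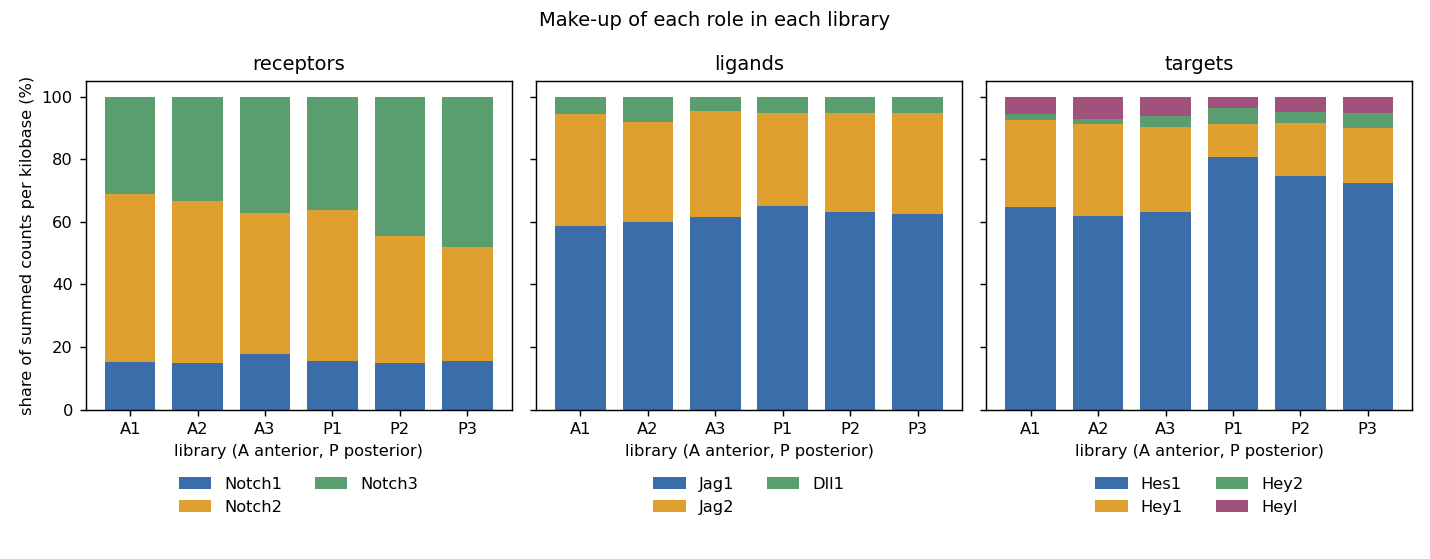
Share (%, vertical axis) of each gene in the summed counts per kilobase of its role, for receptors, ligands and targets, with one bar per library (A anterior, P posterior). Among targets the Hey1 share is 27.3% to 29.5% in anterior and 10.6% to 17.4% in posterior libraries, and among receptors the Notch3 share is highest in P2 and P3.

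None of the 3 receptors was called between the regions, although all 3 had higher means in posterior libraries. Notch3, the receptor best known from pericytes and vascular smooth muscle, was counted at 56.5, 63.8 and 81.6 CPM in anterior and at 63.9, 163 and 199 CPM in posterior libraries. Posterior libraries 2 and 3 lay far above the rest, and posterior library 1 lay within the anterior range. The log2 fold change was 1.08 ± 0.38 with a 95% interval of 0.20 to 1.96, and edgeR gave an adjusted p of 0.134, against an unadjusted p of 0.0224. DESeq2 called Notch3 (adjusted p = 0.0223), which made 3 Notch genes called where 12.6% of all genes were, and edgeR without the low-count filter called it too (adjusted p = 0.0181).

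Notch2, a receptor with wide expression in mesenchyme, had 130, 133 and 133 CPM in anterior and 114, 198 and 200 CPM in posterior libraries. The anterior libraries had an SD of 1.75 CPM, with posterior library 1 below all of them and the other 2 posterior libraries above. The log2 fold change was 0.38 ± 0.20 (edgeR adjusted p = 0.288). Notch1, the receptor known from epithelium and endothelium, had 49.0, 49.9 and 68.2 CPM in anterior and 48.3, 94.9 and 113 CPM in posterior libraries, the same order of posterior libraries as Notch3. Its log2 fold change was 0.62 ± 0.30 (edgeR adjusted p = 0.240). With 1 library left out, the log2 fold change ranged from 0.37 (without posterior library 3) to 0.91 (without posterior library 1) for Notch1 and from 0.25 to 0.60 for Notch2, highest and lowest without the same libraries.

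With the term for the sets of libraries, the log2 fold changes of the receptors turned negative, to -0.20 for Notch1 (95% interval -0.65 to 0.25), -0.20 for Notch2 (-0.36 to -0.05) and -0.07 for Notch3 (-0.52 to 0.38), with edgeR adjusted p-values of 0.647, 0.135 and 0.902. Of the 10 Notch genes 2 were called in that fit, Hey1 and Heyl, where 7.61% of all genes were called. Without posterior library 1 the opposite was found. Then 6 Notch genes were called, namely the 3 receptors as higher in posterior and Hes1, Hey1 and Heyl as higher in anterior, where 46.4% of all genes tested were called, and the log2 fold change of Notch3 reached 1.43 (edgeR adjusted p = 0.000207). The receptors thus took their direction from posterior libraries 2 and 3, and region cannot be told apart from what else marks those libraries.

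**Figure D3:**
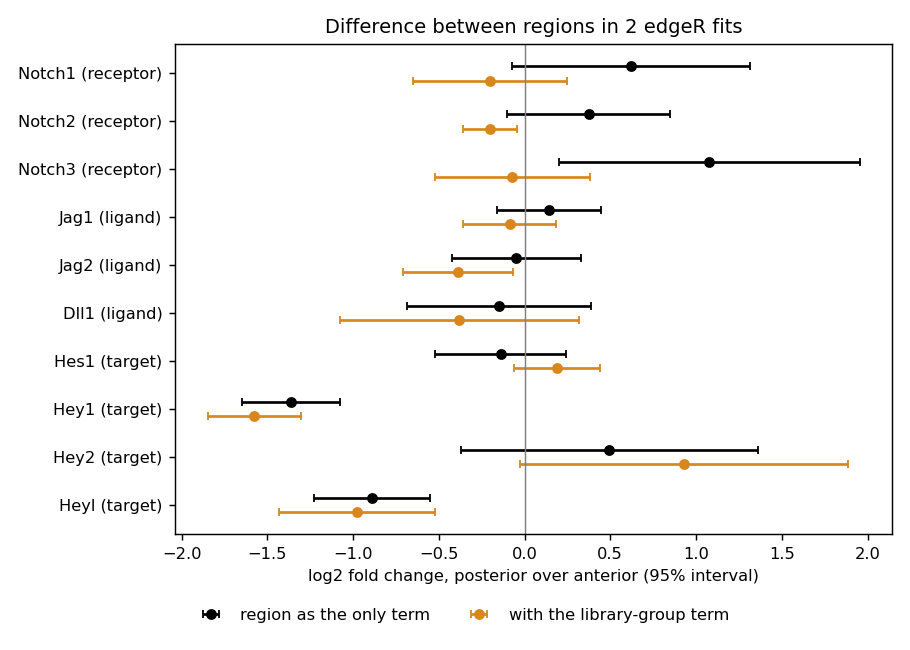
Log2 fold change of posterior over anterior (horizontal axis, with its 95% interval) of the 10 Notch genes in edgeR, with region as the only term (black) and with the term for the 2 sets of libraries (orange). The receptors move from 0.62, 0.38 and 1.08 to -0.20, -0.20 and -0.07, whereas Hey1 and Heyl stay below 0 in both fits.

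The receptors are long genes, with 14.232 kb of exons in Notch1, 10.782 kb in Notch2 and 8.089 kb in Notch3, so that all 3 fall in the longest class of genes. In posterior libraries 2 and 3, Notch1 was at 0.77 and 1.03 on the log2 scale over the anterior mean, Notch2 at 0.59 and 0.60 and Notch3 at 1.28 and 1.56, beside medians of 0.38 and 0.40 for genes of that length. After a correction for exonic length the log2 fold change was 0.22 for Notch1, 0.09 for Notch2 and 0.87 for Notch3 (edgeR adjusted p = 0.481, 0.631 and 0.137). The part of RNA quality in these values was not tested.

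The position of reads along Notch1 differed between libraries too. Notch1 lies on chromosome 2, 26457903 to 26516663, on the minus strand, and at its 3′ end its exons overlap those of 2 genes on the opposite strand, 0610009E02Rik (ending at 26459390) by 1068 bases and Gm13568 (ending at 26458316) by 414 bases. Counting that ignores strand leaves out reads that fall in such an overlap. It lost 56.3%, 56.2% and 51.0% of the Notch1 reads in anterior libraries and 63.7% in posterior library 1, but 20.4% and 20.5% in posterior libraries 2 and 3. The Wilson 95% intervals of the first 4, from 47.5% to 67.3% in all, lay clear of those of the last 2, from 18.3% to 22.7% (counting error only). In the stranded counts the opposite genes held at most 14 reads per library, so that the reads lost were ones the stranded counts gave to Notch1. In counts that ignore strand, the log2 fold change of Notch1 was 1.26 in place of 0.62 (edgeR adjusted p = 0.195). Notch3, whose exons share 488 bases with the opposite-strand gene Gm17276, lost fewer reads and in the other direction, 5.97% to 7.53% in the first 4 libraries and 9.44% and 9.39% in posterior libraries 2 and 3.

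**Figure D4:**
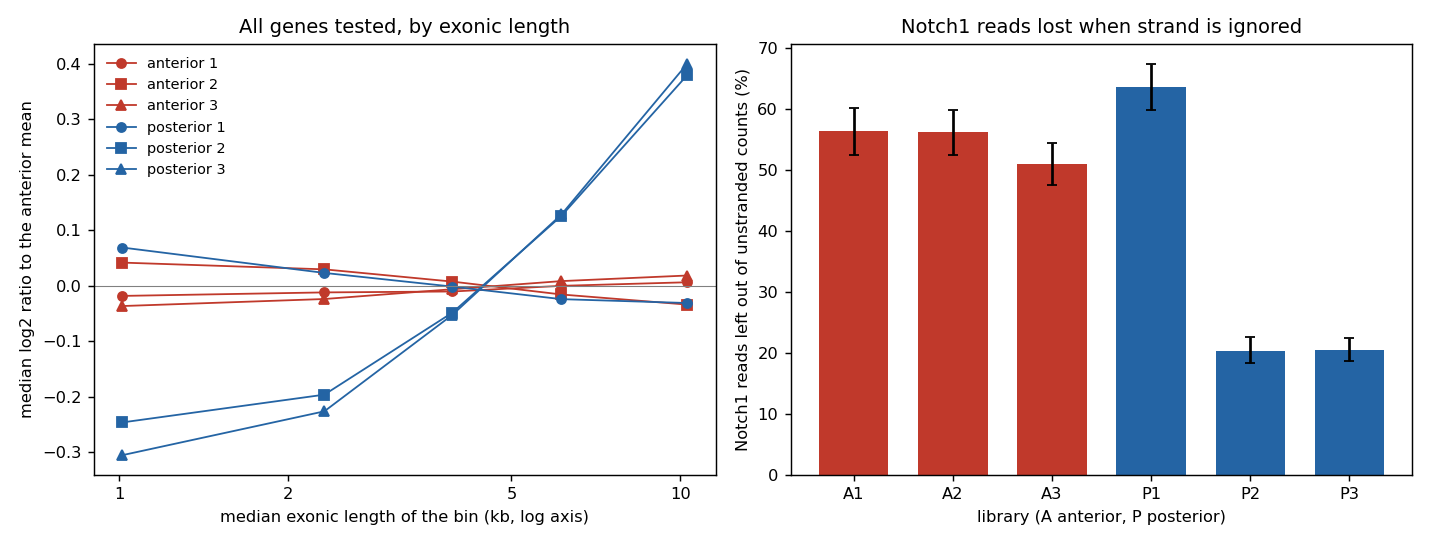
Left, median log2 ratio to the anterior mean (vertical axis) of all genes tested, in bins of exonic length (horizontal log axis, kb), with one line per library. Right, share of Notch1 reads (%) left out when strand is ignored, with Wilson 95% intervals; P2 and P3, at 20.4% and 20.5%, are the libraries whose lines rise to 0.38 and 0.40 for the longest genes.

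Within the receptor group, which the length trend of a library also touches, Notch3 made up 31.1%, 33.3% and 37.1% in anterior and 36.1%, 44.6% and 48.1% in posterior libraries. Notch2 made up 53.6%, 51.9% and 45.3% in anterior and 48.4%, 40.6% and 36.3% in posterior libraries. Both overlapped between regions (exact permutation p = 0.2 each, adjusted 0.25). The share of Notch1 had means of 15.9% and 15.3%. Over the 3 receptors the summed level was 24.4 ± 2.45 CPM per kb in anterior and 39.4 ± 15.4 CPM per kb in posterior libraries (SD, n = 3 each), with 21.9 in posterior library 1.

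No ligand was called between the regions. Jag2, the ligand that palate closure requires and that is known from the oral epithelium, was counted at 47.3, 40.0 and 49.1 CPM in anterior and 34.7, 45.3 and 51.8 CPM in posterior libraries. The lowest and the highest of the 6 values were both posterior. The log2 fold change was -0.05 ± 0.16 (edgeR adjusted p = 0.865) with a 95% interval of -0.43 to 0.33. With the term for the sets of libraries it was -0.39, with an interval of -0.71 to -0.06 and an edgeR adjusted p of 0.164. The 10 epithelial markers summed to 1712 to 1815 CPM in anterior libraries and to 1918, 1353 and 1192 CPM in posterior libraries 1, 2 and 3. The high sum of posterior library 1 went with Krt14, at 572 CPM there against 321 to 385 CPM in anterior libraries, and the 10 markers did not move as one, since Epcam and Cdh1 also had their highest values in that library and Trp63, Esrp1 and Grhl2 their lowest. Of the 10 markers only Trp63 was called, as higher in anterior, and the part of epithelium in the Jag2 values was not tested.

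Jag1, the other Jagged ligand, had 65.2, 62.7 and 74.9 CPM in anterior and 63.6, 75.7 and 84.2 CPM in posterior libraries, with posterior library 1 inside the anterior range and posterior library 3 above all the others. The log2 fold change was 0.14 ± 0.13 (edgeR adjusted p = 0.510), and -0.09 with the term for the sets of libraries (edgeR adjusted p = 0.766). With 1 library left out it ranged from 0.05 to 0.25. Dll1, a Delta ligand that acts in somites and in muscle precursors, was the lowest of the 10 genes in both regions at 1.15 and 1.04 CPM per kb. It had 60, 83 and 46 reads in anterior and 50, 61 and 73 reads in posterior libraries, and a log2 fold change of -0.15 ± 0.23 (edgeR adjusted p = 0.698), against -0.38 with the term (edgeR adjusted p = 0.567). The 10 skeletal muscle markers, all called higher in posterior, had a median log2 fold change of 5.98. The Jag1 share of the 3 ligands was 58.7% to 61.6% in anterior and 62.6% to 65.0% in posterior libraries, which did not overlap (exact permutation p = 0.1, adjusted 0.25), and the Jag2 share had means of 33.8% and 31.2%, which did (exact permutation p = 0.2, adjusted 0.25).

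Ranked by CPM per kb in anterior libraries, the 10 genes ran from Hes1 (37.1) over Hey1 (16.6), Notch2 (12.2), Jag1 (11.6), Notch3 (8.32), Jag2 (6.53), Notch1 (3.91), Heyl (3.66) and Hey2 (1.40) to Dll1 (1.15). Notch2 and Jag1, Notch3 and Jag2, Notch1 and Heyl, and Hey2 and Dll1 overlapped between libraries in that order. In posterior libraries Hes1 stayed first (33.7), followed by Notch3 (17.5), Notch2 (15.8), Jag1 (12.8), Hey1 (6.44), Jag2 (6.31), Notch1 (6.01), Heyl (1.97), Hey2 (1.96) and Dll1 (1.04). There Notch3, Notch2 and Jag1 overlapped with their neighbours, as did Hey1, Jag2 and Notch1, and Heyl and Hey2. This is the order of the means. In posterior library 1 Hes1 (42.3) was followed by Jag1 (10.9), Notch2 (10.6) and Notch3 (7.90), so that Notch3 and Notch2 owe their places to posterior libraries 2 and 3. The length trend of those 2 libraries also touches the order. Hey1, which lay above every receptor in anterior, lay below Notch2 and Notch3 in posterior libraries, and below Notch1 in posterior library 3 alone.

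Several Notch genes are known from blood vessels, and their markers are set beside them here. The 10 endothelial markers summed to 542 to 571 CPM in anterior and to 472, 682 and 746 CPM in posterior libraries 1, 2 and 3, with none called, none at a count of 0 in any library and a median log2 fold change of 0.12. The 7 mural cell markers summed to 354 to 497 CPM in anterior and to 370 to 499 CPM in posterior libraries, with a median of 0.09. Among them Rgs5 and Kcnj8, both pericyte genes, were called higher in anterior with log2 fold changes of -2.04 and -1.72, the direction of Hey1 and Heyl, while Cspg4, Abcc9 and Pdgfrb, which also mark pericytes, were at 0.25, 0.09 and -0.08 and were not called. Acta2, the actin of smooth muscle, was called higher in posterior at 1.24. The part of vascular cells in the differences of Hey1 and Heyl was not tested.

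The genes whose pattern over the 6 libraries was most like that of Hey1, by Pearson's r of log2 CPM, were Fgf10, a growth factor of palatal mesenchyme (r = 0.998), Sall4, a zinc finger transcription factor (r = 0.997), and Prkch, a protein kinase C (r = 0.997). Fgf10 had means of 29.99 CPM in anterior and 14.4 CPM in posterior libraries. For Jag2 they were the kinase gene Pdk1 (r = 0.989), the NF-kappaB subunit Rel (r = 0.986) and Rgl2 (r = 0.983), with log2 fold changes of -0.03, -0.03 and -0.02. These are descriptions over 6 libraries, 3 from each region, in which any gene that differs between the regions in the same way has a high r.

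The wider pathway was read from a list of 47 further genes, of which 44 passed the filter. Dll3, Hes5 and Hes7 did not, with at most 13 reads in any library. Of the 44, 4 were called, all higher in posterior, which is 2 of the 5 other receptors and ligands tested, 1 of 9 genes of proteolytic cleavage and 1 of 7 inhibitors and turnover genes. The share called among all genes tested was 7.46%, with 4.87% higher in posterior. None was called higher in anterior in this edgeR fit, where 3 had an unadjusted p below 0.05. Nrarp was so called by DESeq2 and by edgeR without the low-count filter, as were 3 of the 9 genes that edgeR called after the length correction. The median log2 fold change of the 44 was 0.14.

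Dlk1, a Delta-like protein that lacks the receptor-binding domain of the classical ligands and marks muscle and fat precursors, had 177, 167 and 196 CPM in anterior and 929, 880 and 1124 CPM in posterior libraries. All posterior values lay above all anterior values, with a log2 fold change of 2.44 ± 0.14 (edgeR adjusted p = 0.000157). Its direction was that of the 10 skeletal muscle markers described above, which summed to 10.6 to 13.2 CPM in anterior libraries. Their part in the Dlk1 values was not tested. Dtx4, of the Deltex family of ubiquitin ligases that act on Notch receptors, had 18.9, 20.4 and 19.03 CPM in anterior and 39.2, 37.5 and 35.2 CPM in posterior libraries, 1.92-fold higher in posterior with a log2 fold change of 0.94 ± 0.10 (edgeR adjusted p = 0.00209). In the fit with the term for the sets of libraries, which rests on posterior library 1, the values were 2.37 and 1.01 (edgeR adjusted p = 6.56e-05 and 0.00130).

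Dner, a Delta-like transmembrane protein, had 1.90, 1.6 and 1.47 CPM in anterior and 2.92, 6.79 and 5.69 CPM in posterior libraries, a log2 fold change of 1.63 ± 0.35 (edgeR adjusted p = 0.0323). Aph1b, a subunit of the gamma-secretase that releases the intracellular domain, had 17.8, 17.6 and 15.7 CPM in anterior and 21.6, 29.3 and 30.4 CPM in posterior libraries, a log2 fold change of 0.67 ± 0.16 (edgeR adjusted p = 0.0445). In both genes posterior library 1 lay between the anterior libraries and the other 2 posterior libraries. Both calls were lost with the term for the sets of libraries, at 0.81 and 0.34 (edgeR adjusted p = 0.172 and 0.197). They were also lost with limma-voom and when any library other than posterior library 1 was left out. The fit with the term also gave a call for Maml3, a Mastermind coactivator, at -0.70 (edgeR adjusted p = 0.0370). That call rests on posterior library 1, at 19.3 CPM, since posterior libraries 2 and 3 had 27.3 and 32.1 CPM beside 28.4 to 35.0 CPM in anterior libraries. With region as the only term and no length correction, edgeR gave an adjusted p of 0.407. After the length correction, with all libraries kept, Maml3 was called higher in anterior too, at -0.52 (edgeR adjusted p = 0.0337).

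**Figure D5:**
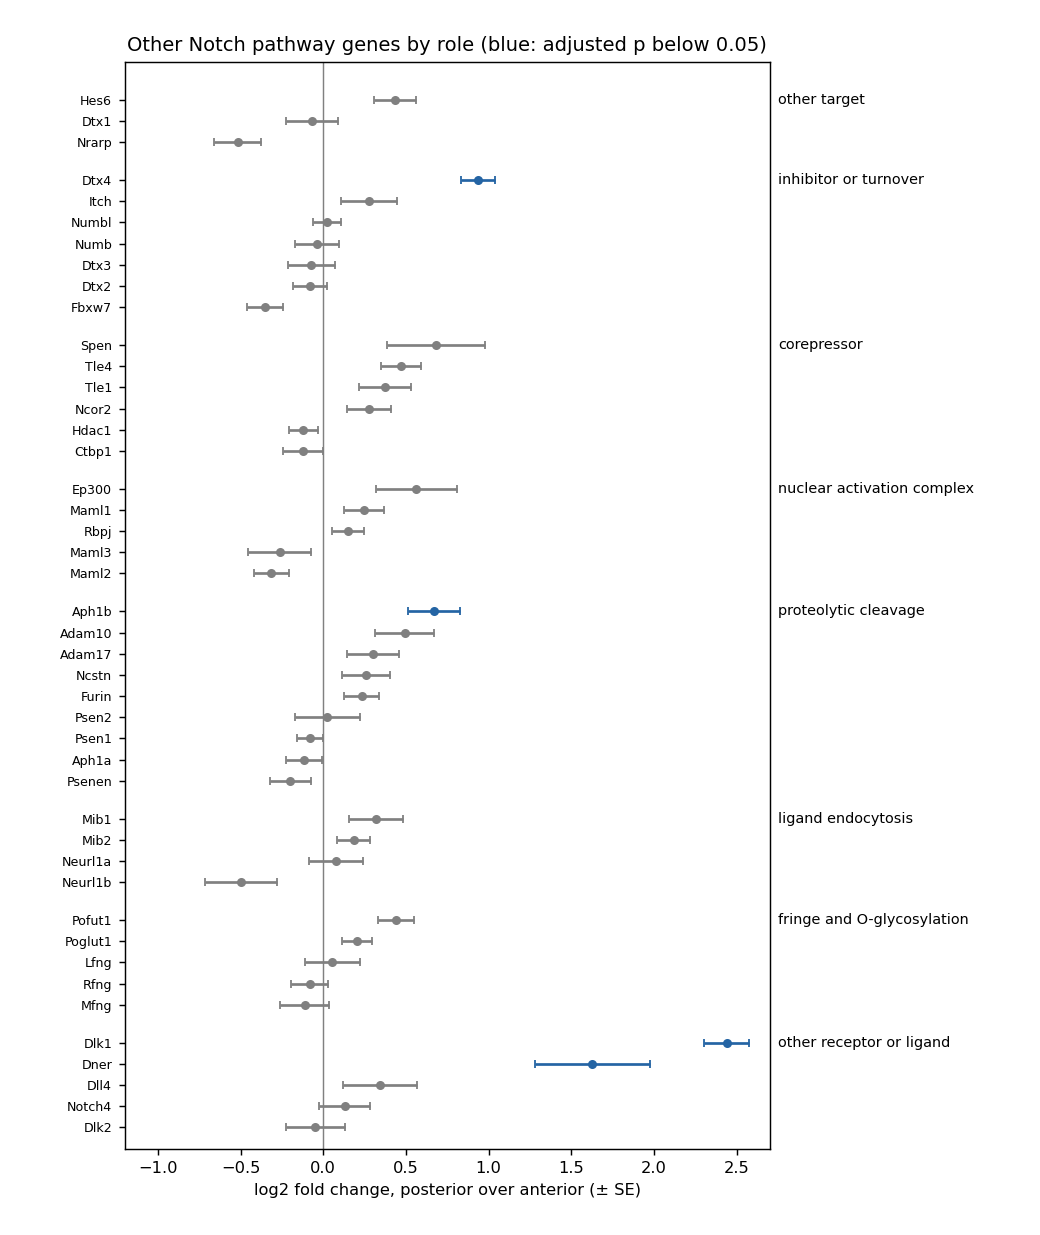
Log2 fold change of posterior over anterior (horizontal axis, ± SE) of the 44 further Notch pathway genes tested, grouped by role, with genes called by edgeR in blue. Dlk1, Dner, Dtx4 and Aph1b are the 4 called, all to the right of 0.

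The 2 genes of highest level per kb in each role are given next, whatever their difference. Rbpj, the DNA-binding partner of the receptors, had means of 99.6 ± 1.90 CPM in anterior and 111 ± 9.71 CPM in posterior libraries (SD, n = 3 each), with a log2 fold change of 0.15. Maml1, a coactivator in the same complex, was at 0.25. Adam10 and Ncstn, which take part in receptor cleavage, were at 0.49 and 0.26, and Mib1 and Mib2, the ubiquitin ligases that act on ligands, at 0.32 and 0.19. Poglut1 and Rfng, which attach sugars to the receptors, were at 0.21 and -0.08. The corepressors Ctbp1 and Hdac1 were both at -0.12, Dlk2 at -0.05, and Dtx3 and Itch at -0.07 and 0.27. None of these 13 genes was called by edgeR with all 6 libraries. Without posterior library 1, where edgeR called 46.4% of all genes, it called 26 of the 44 pathway genes and 10 of these 13, all but Mib2, Rfng and Dlk2. Adam10, for example, had 154 CPM in posterior library 1, within the anterior range of 147 to 156 CPM, and 244 and 245 CPM in posterior libraries 2 and 3, the split seen in the receptors.

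Of the further targets, Hes6 and Nrarp did not pass the edgeR test with region as the only term and all libraries. Their libraries did not overlap, as was so for 13 of the 44 pathway genes, beside 14.7% of all genes with posterior higher and 13.4% with anterior higher. Hes6, a Hes protein that counteracts Hes1, had 29.4, 24.4 and 29.5 CPM in anterior and 39.8, 39.4 and 33.3 CPM in posterior libraries (log2 fold change 0.43 ± 0.13, edgeR adjusted p = 0.0884), and it was called at 0.57 after the length correction (edgeR adjusted p = 0.0279). Nrarp, a feedback inhibitor that Notch signalling induces, had 29.7, 29.1 and 35.5 CPM in anterior and 25.6, 20.5 and 19.7 CPM in posterior libraries. Its log2 fold change was -0.52 ± 0.14, with an adjusted p of 0.0762 in edgeR, 0.0465 in edgeR without the low-count filter and 0.0326 in DESeq2. Both were also called without posterior library 1.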

How the data were processed

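RNA from the anterior 1/3 and posterior 1/3 of E14.0 mouse palatal shelves was sequenced in 3 libraries each. The deposited tables hold unnormalized counts per gene, one table a library, laid out as STAR writes them, while the study's methods name mm10, HISAT2, StringTie and DESeq2 1.30.1. The annotation version behind the counts is not given in the sources used here. Symbols, positions and exonic lengths came from GENCODE M21 (GRCm38), which named 52073 of 56691 identifiers. Reverse-stranded counts, 18.95 to 23.1 times those of the other strand, were used. Reads outside genes (5.92% to 8.71% without a feature) stayed out of library sizes. A limit of 3 counts corresponded to 0.198 to 0.264 CPM. Replicates differed by more than sampling noise (chi-square per gene 3.73 to 68.0).

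Genes reaching 10 counts in 3 or more libraries entered a quasi-likelihood fit in edgeR 4.0.16 (R 4.3.3) on region alone, scaled by TMM, with p-values adjusted after Benjamini and Hochberg over all genes tested and a threshold of 0.05. Shares within a role were compared with two-sided exact permutation tests. Alternatives were DESeq2 1.42.0, limma-voom (limma 3.58.1), other scalings, filters and strand settings, a replicate block, a term for the 2 sets of libraries parted by their share of multimapping reads, a length correction, and leaving out libraries. The fit was tested on simulated counts with the spread of the 3 anterior libraries. These differed less among themselves than the posterior libraries did (chi-square per gene 3.73 to 6.82, against 10.2 to 68.0). The simulation therefore does not cover the posterior spread. The members, lists and tests were chosen with earlier results of these data known. Named were all members, the pathway genes called and the 2 of highest level per kb in each role, and the 3 genes most like Jag2 and like the member of smallest p. Maml3 and the single cell type markers were named after their values were seen.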

Additional observations from a re-analysis of the deposited data

How the results depend on the processing

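Hey1 and Heyl kept their direction under every alternative. Members called as higher in posterior numbered 1 with DESeq2 and without the low-count filter (Notch3 in both), against 0. The replicate numbers did not pair the libraries (correlations of deviations between same-numbered libraries -0.05, 0.05 and 0.04), and the replicate block gave -1.37 for Hey1 and -0.88 for Heyl with 2 members called. Pathway genes called numbered 4, against 7 with DESeq2 and without the filter (1 of them higher in anterior in each), 9 with the length correction (3 higher in anterior), and 2 with limma-voom and with the replicate block, Dlk1 and Dtx4, while Dner and Aph1b dropped out. Aph1b also dropped out with library size only and with at least 10 counts in every library. With the term for the sets of libraries, and without posterior libraries 2 and 3 (chosen after seeing the data), 2 were higher in posterior and 1 in anterior. Over all genes, 1169 were called, against 1978 with DESeq2 (637 anterior, 1341 posterior), 2162 without the filter (646 and 1516), 1384 with the length correction, 1074 with limma-voom and 829 with the replicate block (237 anterior).

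The log2 fold change changed sign with the term for the sets of libraries to 0.19 for Hes1, -0.087 for Jag1, -0.20 for Notch1 and Notch2 and -0.071 for Notch3, and without posterior libraries 2 and 3 to 0.19, -0.089, -0.20, -0.20 and -0.072. With 1 library left out it ranged from -0.27 to 0.036 for Dll1 (above 0 without anterior library 2), from -0.33 to 0.00059 for Hes1 (without posterior library 3) and from -0.18 to 0.10 for Jag2 (above 0 also without anterior library 3, at 0.0073). The Notch1 share difference, -0.64 percentage points, became 2.64 in unstranded counts and ranged from -1.202 to 0.212 with 1 library left out (highest without anterior library 3), and that of Dll1, -0.88, from -1.65 to 0.0774 (highest without anterior library 2). The cause was not tested.

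With 1 library left out, genes called ranged from 498 to 7119 (140 to 3242 anterior, 312 to 3877 posterior), members from 1 to 6 (1 to 3 anterior, 0 to 3 posterior) and pathway genes from 2 to 26 (0 to 7 anterior, 2 to 19 posterior). The highest value of each range came without posterior library 1. Among the members, depth limits Dll1 and Hey2 most, at 46 to 162 reads per library.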
